A study of Astatotilapia calliptera and Haplochromis burtoni and Pundamilia nyererei with 40 samples.

Results

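The testes of Maylandia zebra (MZ) were set against those of Astatotilapia calliptera (AC), both haplochromine cichlids of the Lake Malawi radiation. The comparison takes the 2 MZ and the 4 AC testes libraries, 6 of the 40 samples in the series, as chosen by their species and tissue labels. Each library is poly(A)-selected, strand-directional RNA from the testes of 1 wild-type male. MZ males were captive-bred, dominant adults from a commercial supplier, whereas AC animals came from laboratory tanks, so source, husbandry and species cannot be told apart. The question addressed is which protein-coding and other annotated genes, and which families of transposable elements (TEs), differ in RNA level between the gonads of close relatives. The 4 testes libraries of another Lake Malawi cichlid, Tropheops sp. 'mauve' (TM), enter the fit to share the estimate of spread. They thereby also take part in the scaling and in the choice of features with enough counts. Their values are given for single genes and TE families as context.

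TEs are mobile DNA sequences. LTR retrotransposons (Gypsy, Pao and the endogenous retrovirus group ERV1) copy themselves through an RNA and are flanked by long terminal repeats, LINEs copy themselves through RNA without such repeats, SINEs borrow the LINE machinery, DNA transposons move mostly by excision, and rolling-circle elements (Helitron) copy DNA strands. In animal gonads, Piwi proteins loaded with small piRNAs cut TE transcripts and direct silencing of their loci. A fish testis holds germ cells at every stage, from spermatogonia through meiotic spermatocytes to flagellated sperm, together with Sertoli cells that nurse them and Leydig cells that make androgens. In such bulk tissue, fewer cells of a type and less RNA per cell cannot be told apart.

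Assigned counts were 26742599 and 24591549 in MZ testes, against 23631390, 25078712, 25642737 and 25150725 in AC testes. Levels are CPM, counts scaled to 1000000 a library after TMM, a normalisation that assumes most features do not change. Reads of both species were aligned to the AC genome (fAstCal1.2), so a sequence that MZ lacks, or that differs from the AC copy, loses MZ reads only, and this cannot be told apart from a lower RNA level. Testis markers were present in all 6 libraries: dmrt1, a male sex-determination factor, had 50.2 and 96.1 CPM of total counts in MZ testes and 52.3 to 78.6 in AC testes, against 2.40 to 8.14 in the 4 AC ovaries. Oocyte genes were also present in all 6, at ovarian levels. The egg-coat gene zp3b had 541 and 413 CPM of total counts in MZ testes and 321 to 479.5 in AC testes, against 403 to 604 in AC ovaries, and gdf9, an oocyte growth factor, had 301 and 244, and 216 to 274, against 311 to 372. The part of this oocyte-gene RNA in the results below was not tested, and its summed level was highest in MZ library 1 and lowest in AC library 3. MZ library 1 and AC library 4 had the lowest summed levels of flagellum and meiosis genes. Results that rest on 1 library are therefore given without it.

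Of 28001 genes and 557 TE families, 20186 genes and 519 families had enough counts to be tested. Calls are genes or families with an adjusted p below 0.05 in edgeR's robust quasi-likelihood test (Benjamini-Hochberg over all 20705 features). Of the genes tested, 8.71% were called: 997 were higher in MZ (4.94%) and 762 lower (3.77%). The difference was at least 2-fold for 849 of those higher and 641 of those lower, and at least 8-fold for 283 and 164. Both MZ libraries lay above all AC libraries for 15.1% of genes tested and below them for 13.0%, and among the calls this held for 973 of 997 and 757 of 762. Over all genes the median log2 ratio of MZ to AC was -0.0045. Of the TE families, 16.0% were called, 73 higher in MZ (14.1%) and 10 lower (1.93%), with a median log2 fold change of 0.40 that was -0.03 without MZ library 2 and 0.69 without MZ library 1. Both MZ libraries lay above all AC libraries for 25.6% of families and below them for 6.74%, and among the calls for 70 of 73 and 10 of 10. The number of called genes was 1125 without AC library 1. In a fit of the AC and MZ libraries alone, 600 genes and 20 TE families were called. With a term for replicate number these were 607 and 18. The number of calls therefore depends on the TM libraries that share the estimate of spread, and on the model.

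The named genes highest in MZ relative to AC encoded extracellular matrix, cytoskeletal, signalling and transport proteins. The gene with the largest fold change was hapln4 (chromosome 23, 5607886 to 5619186 of fAstCal1.2 in the RefSeq annotation), a link protein of the brain's extracellular matrix. It had 97.6 and 32.2 CPM in MZ testes, against 0, 0.0401, 0 and 0.194 CPM in AC testes (log2 fold change 10.02 ± 0.76, adjusted p = 4.03e-05). The AC counts were 0, 1, 0 and 5 reads, against 2537 and 860 in MZ, so that no library overlapped. In TM testes hapln4 lay between 0.045 and 0.223 CPM, near the AC level. The β-tubulin tubb2 had 22.4 and 17.8 CPM in MZ testes, against 0, 0.0401, 0.344 and 0.0775 CPM in AC testes (log2 fold change 7.31 ± 0.6, adjusted p = 5.36e-05). TM testes held tubb2 between 18.5 and 27.1 CPM, close to MZ.

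Regulators of signalling were among the other large differences. rgs8, which speeds the switching-off of G proteins, had 2.77 and 17.6 CPM in MZ testes, against 0.0802, 0.0801, 0.206 and 0.155 CPM in AC testes (log2 fold change 6.21 ± 0.72, adjusted p = 5.38e-04). TAFA1, a small secreted protein known from the brain, had 30.9 and 21.6 CPM in MZ testes, against 0.441, 0.2, 0.31 and 0.0388 CPM in AC testes (log2 fold change 6.7 ± 0.51, adjusted p = 4.00e-05). NPTX1, a neuronal pentraxin, had 8.85 and 15.1 CPM in MZ testes, against 0.24, 0.12, 0.206 and 0.271 CPM in AC testes (log2 fold change 5.8 ± 0.48, adjusted p = 5.80e-05). Separation of the species in every library was a condition for naming these 3 genes. The cation channel gene trpc4b (chromosome 14, 8587399 to 8597026) was high in 1 fish, with 212 and 1.38 CPM in MZ testes, against 0.601, 0.641, 1.27 and 1.01 CPM in AC testes (log2 fold change 6.91 ± 1.2, adjusted p = 0.0065). Without MZ library 1 its log2 fold change was 0.63 and its adjusted p was 0.524.

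Transporters of small molecules and a conjugating enzyme made up the remaining named genes with large differences. slc6a19a.1, whose mammalian counterpart takes up neutral amino acids, had 11.1 and 21.8 CPM in MZ testes, against 0.24, 0.361, 0.275 and 0.271 CPM in AC testes (log2 fold change 5.82 ± 0.45, adjusted p = 4.00e-05). slc7a2 (chromosome 2, 21845378 to 21854965), a carrier of cationic amino acids, had 37.5 and 73.1 CPM in MZ testes, against 1.4, 1.4, 1.75 and 1.24 CPM in AC testes (log2 fold change 5.25 ± 0.3, adjusted p = 7.02e-06). slc19a3b (chromosome 14, 26593996 to 26603087), named for the thiamine transporter, had 26.7 and 11.8 CPM in MZ testes, against 0.321, 0.561, 0.482 and 0.233 CPM in AC testes (log2 fold change 5.57 ± 0.53, adjusted p = 1.60e-04). The cytosolic sulfotransferase gene sult1st6 had 136 and 173 CPM in MZ testes, against 1.32, 1.04, 4.16 and 4.15 CPM in AC testes (log2 fold change 5.84 ± 0.5, adjusted p = 1.04e-04). Both MZ libraries exceeded each AC library for all of these, as the choice of named genes required. In TM testes slc6a19a.1 lay between 3.37 and 9.47 CPM, slc7a2 between 0.405 and 0.667 CPM, slc19a3b between 4.83 and 12.9 CPM and sult1st6 between 7.11 and 12.2 CPM. A second gene of the name sult1st6 is annotated, and the split of reads between such copies is uncertain. Of the genes with no name, ENSACLG00000003662 had 246 and 70.7 CPM in MZ testes, against 0.2, 0.0801, 0.275 and 0.194 CPM in AC testes (log2 fold change 9.66 ± 0.54, adjusted p = 7.02e-06). ENSACLG00000021412 had 98 and 479 reads in MZ testes, against 0, 0, 1 and 0 in AC testes, a count ratio of 1147 with an exact 95% interval of 205 to 45364.5 that covers counting error only.

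The highest-count genes among those higher in MZ were star, rplp0, H2BK1 and abcc4. star (chromosome 12, 24609133 to 24611893), the protein that moves cholesterol into mitochondria as the first step of steroid synthesis, had 1007 and 1039.5 CPM in MZ testes, against 359, 329, 332 and 240.2 CPM in AC testes (log2 fold change 1.7 ± 0.29, adjusted p = 0.00571). rplp0, part of the ribosomal stalk, had 703 and 631 CPM in MZ testes, against 374, 353, 305 and 409 CPM in AC testes (log2 fold change 0.89 ± 0.19, adjusted p = 0.0172). The histone H2B gene H2BK1 had 1221 and 592 CPM in MZ testes, against 357, 406, 217 and 511 CPM in AC testes (log2 fold change 1.28 ± 0.35, adjusted p = 0.044), and the efflux transporter abcc4 had 789.7 and 477 CPM in MZ testes, against 240.5, 192, 60.8 and 231 CPM in AC testes (log2 fold change 1.81 ± 0.45, adjusted p = 0.0315). rplp0, H2BK1 and abcc4 were highest in MZ library 1 and lowest in AC library 3, as was the summed level of oocyte genes. In MZ library 2 the oocyte sum was 16217 CPM, against 12365 to 25913 CPM in AC testes. In AC ovaries abcc4 had a mean of 139 CPM of total counts, below the 188 of AC testes, with a highest ovary value of 247. The ovary means of rplp0 and H2BK1 were 577 and 636, above the 378 and 388 of AC testes. A link of these genes to oocyte RNA was not tested. The H2BK1 call was lost without MZ library 1 (adjusted p = 0.301) and without AC library 1, 2 or 3 (0.0732 to 0.0911). That of abcc4 was lost without MZ library 1 (0.144), MZ library 2 (0.0522) or AC library 2 (0.0651). Another entry of the name abcc4 (ENSACLG00000026475) had 39 and 28.4 CPM in MZ testes, against 4.45, 3.69, 1.27 and 4.34 CPM in AC testes (log2 fold change 3.29 ± 0.42, adjusted p = 9.42e-04).

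Among the genes lower in MZ, the carbonyl reductase gene cbr1 stood farthest from 0. cbr1 belongs to a family that reduces carbonyl compounds, among them steroids and prostaglandins in mammals. The copy ENSACLG00000000032 had 1 and 1 reads in MZ testes, against 12715, 18191, 7952 and 10946 in AC testes. As levels these were 0.0385 and 0.0374 CPM in MZ testes, against 509.6, 729, 274 and 424 CPM in AC testes (log2 fold change -13.46 ± 0.73, adjusted p = 5.14e-06). The count ratio of MZ over AC was 8.0e-05, with an exact 95% interval of 1.0e-05 to 0.000288 that covers counting error only. In TM testes this copy lay between 0.135 and 0.447 CPM, and in the 4 AC ovaries between 1.26 and 51.1 CPM of total counts. Of the other annotated cbr1 entries, none was called, and ENSACLG00000000042 had 78.7 and 119 CPM in MZ testes, against 91.7 to 138 CPM in AC testes. Entries of 1 name may be near-identical copies, in which case the split of reads among them is uncertain.

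Other genes lower in MZ included cyp7a1, dgat2, apodb, kcnq2a, celf1 and gnat2. cyp7a1 (chromosome 18, 31080521 to 31087251), the rate-limiting enzyme of bile acid synthesis from cholesterol, had 0.769 and 1.5 CPM in MZ testes, against 136, 174, 85.6 and 66.8 CPM in AC testes (log2 fold change -6.67 ± 0.66, adjusted p = 2.22e-04). dgat2 (chromosome 10, 2381581 to 2391570), which makes the last step to triacylglycerol, had 56.8 and 57.2 CPM in MZ testes, against 334, 410.1, 286 and 431 CPM in AC testes (log2 fold change -2.68 ± 0.21, adjusted p = 4.03e-05). apodb, an apolipoprotein D gene, had 0.462 and 0.449 CPM in MZ testes, against 19, 14.3, 5.99 and 7.56 CPM in AC testes (log2 fold change -4.67 ± 0.75, adjusted p = 0.00408). For dgat2 the MZ libraries lay close together and each AC library was several times higher, and TM testes lay between 123.3 and 132 CPM. The potassium channel gene kcnq2a had 0.308 and 0.187 CPM in MZ testes, against 29.7, 22.3, 20.3 and 3.76 CPM in AC testes (log2 fold change -6.24 ± 0.85, adjusted p = 0.00158), and celf1, an RNA-binding regulator of splicing and translation, had 0.5 and 1.05 CPM in MZ testes, against 16.7, 19.4, 15.9 and 19.3 CPM in AC testes (log2 fold change -4.51 ± 0.37, adjusted p = 4.90e-05). gnat2, the cone transducin α subunit, had 2.81 and 0.486 CPM in MZ testes, against 81.2, 28.4, 12.3 and 17.6 CPM in AC testes (log2 fold change -4.4 ± 0.93, adjusted p = 0.0165), and lost its call without MZ library 2 (adjusted p = 0.0813).

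The remaining named genes with the largest lower values were prkrip1, NXPE3, TTC39B and PITPNM2, a phosphatidylinositol transfer protein. prkrip1 had 0.231 and 0.15 CPM in MZ testes, against 14.8, 7.45, 5.88 and 16.7 CPM in AC testes (log2 fold change -5.85 ± 0.58, adjusted p = 2.04e-04), and NXPE3 (ENSACLG00000016722) had 0.923 and 2.88 CPM in MZ testes, against 24, 49.6, 86.6 and 46.8 CPM in AC testes (log2 fold change -4.76 ± 0.63, adjusted p = 0.00129). Another NXPE3 entry, ENSACLG00000002491, went the other way, with 22.7 and 34.5 CPM in MZ testes, against 8.54, 8.73, 7.46 and 7.6 CPM in AC testes (log2 fold change 1.82 ± 0.31, adjusted p = 0.005). TTC39B had 2.08 and 11.8 CPM in MZ testes, against 107, 244, 197 and 164 CPM in AC testes (log2 fold change -4.68 ± 0.64, adjusted p = 0.0019) and PITPNM2 had 1.12 and 2.51 CPM in MZ testes, against 58.2, 43.9, 80.6 and 4.57 CPM in AC testes (log2 fold change -4.69 ± 0.99, adjusted p = 0.0158). Of the unnamed genes, ENSACLG00000008493 had 0.346 and 4.6 CPM in MZ testes, against 166, 142, 242 and 24 CPM in AC testes, and ENSACLG00000013501 had 0.192 and 0.374 CPM in MZ testes, against 7.41, 5.89, 11.6 and 17.7 CPM in AC testes. Groups did not overlap for any of these genes, as the choice of named genes required. The PITPNM2 call was lost without MZ library 1 (adjusted p = 0.0731) or MZ library 2 (0.0646).

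Beside cbr1, the highest-count genes lower in MZ had small fold changes. hspa5, the chaperone of the endoplasmic reticulum, had 236 and 149.6 CPM in MZ testes, against 519, 533, 349.5 and 588 CPM in AC testes (log2 fold change -1.37 ± 0.27, adjusted p = 0.011). stmn1a, a protein that destabilises microtubules, had 214 and 243 CPM in MZ testes, against 325, 485, 359.6 and 612 CPM in AC testes (log2 fold change -0.96 ± 0.26, adjusted p = 0.0428), and the ubiquitin ligase gene huwe1 had 264 and 159.6 CPM in MZ testes, against 479.6, 416, 420.5 and 375 CPM in AC testes (log2 fold change -1.0 ± 0.23, adjusted p = 0.0225). Without MZ library 2, adjusted p was 0.0646 for hspa5 and 0.102 for huwe1, which also lost its call without AC library 1 (0.0531). The stmn1a call was lost without either MZ library (0.114 and 0.0957), AC library 2 (0.0806) or AC library 4 (0.0573). Another hspa5 entry, ENSACLG00000010903, had 402 and 215 CPM in MZ testes, against 173, 221, 127 and 258 CPM in AC testes (log2 fold change 0.66 ± 0.35, adjusted p = 0.269), not called.

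**Figure D1:**
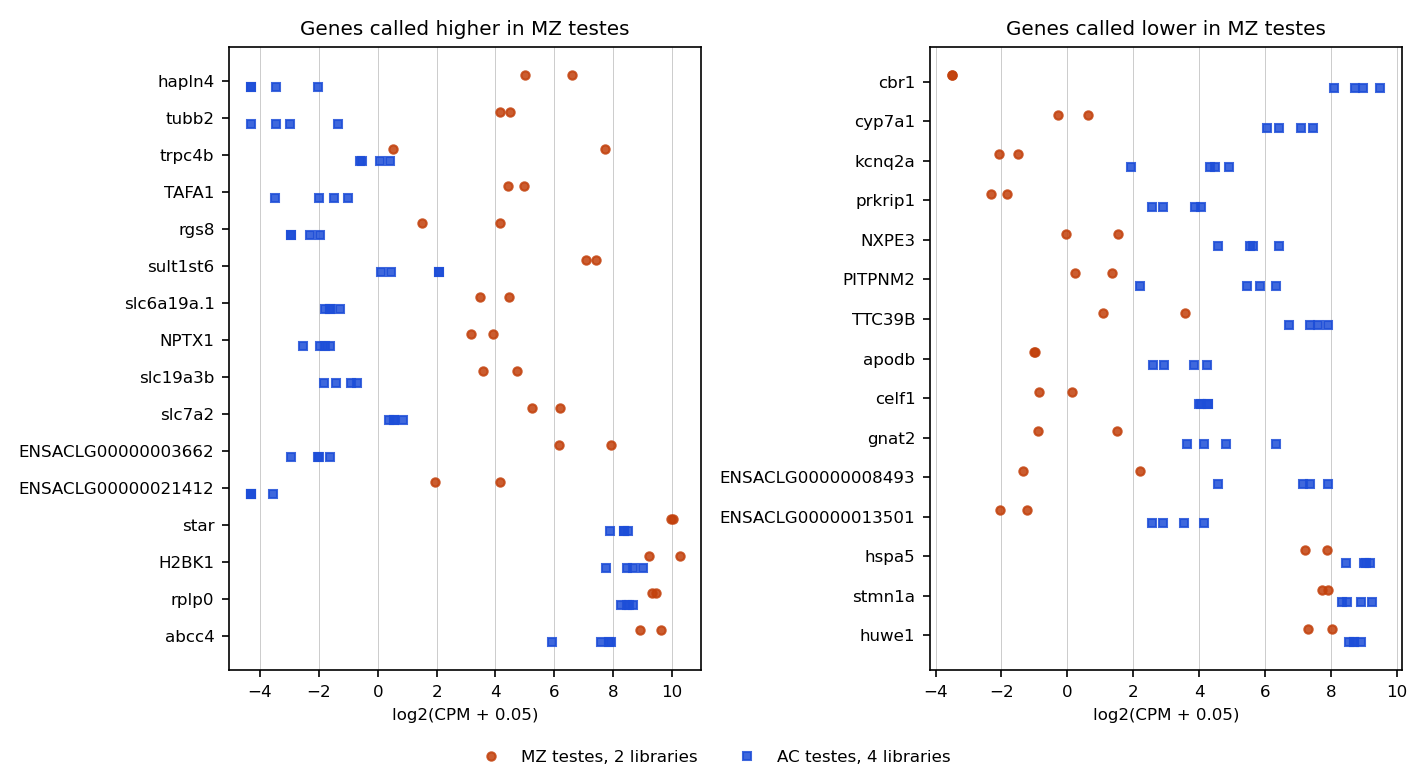
Level of each named gene in each library, as log2(CPM + 0.05), for genes higher in MZ testes (left panel) and lower (right panel); circles are the 2 MZ libraries, squares the 4 AC libraries. Genes were drawn only where the circles lie wholly to one side of the squares. cbr1 shows the widest gap, at 1 read in each MZ library.

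At a threshold of 10 CPM in every library of one species and at most 2 reads in every library of the other, cbr1 was the only feature near 0 in MZ, and none was near 0 in AC. At 1 CPM, 14 genes were near 0 in MZ and 19 in AC. Those near 0 in MZ included a gene named ccl25b (ENSACLG00000002474), a chemokine that guides lymphocytes, with 0 reads in MZ testes, against 2.48, 1.2, 4.51 and 3.26 CPM in AC testes, at least 51.5-fold lower over a floor of 3 reads for the group. Another ccl25b entry, ENSACLG00000002656, went the other way, with 44.8 and 102 CPM in MZ testes, against 24.6, 24.4, 24.6 and 17.5 CPM in AC testes (log2 fold change 1.69 ± 0.29, adjusted p = 0.00611), a call lost without MZ library 2 (adjusted p = 0.0603). Other genes near 0 in MZ were mfsd4aa, with 0.0385 and 0.0748 CPM in MZ testes, against 5.77, 11.4, 4.88 and 7.44 CPM in AC testes, and the opsin gene opn8b, with 0.0769 and 0.0748 CPM in MZ testes, against 3.05, 4.01, 2.65 and 3.41 CPM in AC testes. Those near 0 in AC included mc4r, the melanocortin 4 receptor, with 4.27 and 3.52 CPM in MZ testes, against 0, 0, 0.0344 and 0 CPM in AC testes, and the small GTPase gene rhogb (ENSACLG00000001357), with 6.85 and 7.29 CPM in MZ testes, against 0.0401, 0, 0.0344 and 0 CPM in AC testes. The other rhogb entry, ENSACLG00000000788, had 3.38 and 4.26 CPM in MZ testes, against 9.82, 22.3, 8.36 and 7.13 CPM in AC testes (log2 fold change -1.64 ± 0.51, adjusted p = 0.07). The fucosyltransferase gene fut9a had 1.92 and 3.89 CPM in MZ testes, against 0 reads in all AC testes, at least 102-fold higher over the same floor, or 67.2-fold with MZ library 1 alone. TM testes had less than 1 CPM in every library for 12 of the 14 genes near 0 in MZ, and for 7 of the 19 near 0 in AC.

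Germ cell genes separated the libraries of a species more than the species. Of 79 flagellum and axoneme genes tested, 1 was higher and 2 lower in MZ, against 4.94% and 3.77% of all genes. Their summed level was 1584 and 5632 CPM in MZ testes, against 6290, 4855, 7677 and 1821 CPM in AC testes, so MZ library 1 and AC library 4 stood apart from the others. The median log2 fold change of the list was -0.49, with 8 genes above 0, but it was 0.14 without MZ library 1 and -1.81 without MZ library 2. Called lower were CFAP61, a protein of the axoneme's radial spokes, with 16 and 24.2 CPM in MZ testes, against 76.1, 81.5, 69.6 and 49.9 CPM in AC testes (log2 fold change -1.78 ± 0.25, adjusted p = 0.00188), and enkur, with 0.0385 and 0.786 CPM in MZ testes, against 9.46, 6.85, 13 and 2.02 CPM in AC testes (log2 fold change -4.23 ± 0.95, adjusted p = 0.0201). tppp2 was higher, with 0.923 and 2.66 CPM in MZ testes, against 0.0802, 0, 0.378 and 0.0388 CPM in AC testes (log2 fold change 3.74 ± 0.84, adjusted p = 0.0201), and lost its call without MZ library 2 (adjusted p = 0.124) or AC library 1 (0.0614).

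Of 34 meiosis genes, 2 were higher (5.88%, against 4.94% of all genes) and none lower in MZ, with summed levels of 1791 and 4413 CPM in MZ testes, against 2908, 2559, 3447 and 2002 CPM in AC testes. These were terb2, which ties meiotic telomeres to the nuclear envelope, with 89 and 112 CPM in MZ testes, against 50, 56.7, 64 and 61.6 CPM in AC testes (log2 fold change 0.79 ± 0.16, adjusted p = 0.0122), and sfr1, a partner of the recombination machinery, with 63.8 and 52.3 CPM in MZ testes, against 29.9, 40.5, 33.6 and 38.6 CPM in AC testes (log2 fold change 0.7 ± 0.17, adjusted p = 0.0271). The median of the list was 0.23, and -0.70 without MZ library 2. None of 29 spermatogonial genes and none of 55 proliferation genes was called, with medians of 0.18 and -0.14. Of 33 spermatid and sperm-function genes only gapdhs, the sperm-type glycolytic enzyme, was called, as lower (3.03%, against 3.77% of all genes), with 67.2 and 102 CPM in MZ testes, against 156, 155, 109.9 and 192 CPM in AC testes (log2 fold change -0.86 ± 0.24, adjusted p = 0.0457). The terb2 call was lost without MZ library 2 (adjusted p = 0.0656). Without MZ library 1, adjusted p was 0.102 for sfr1 and 0.165 for gapdhs, and both also lost their calls without AC library 1 (0.0761 and 0.0683), sfr1 without AC library 3 (0.0543), and gapdhs without AC library 2 (0.0734) or 4 (0.0722).

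**Figure D2:**
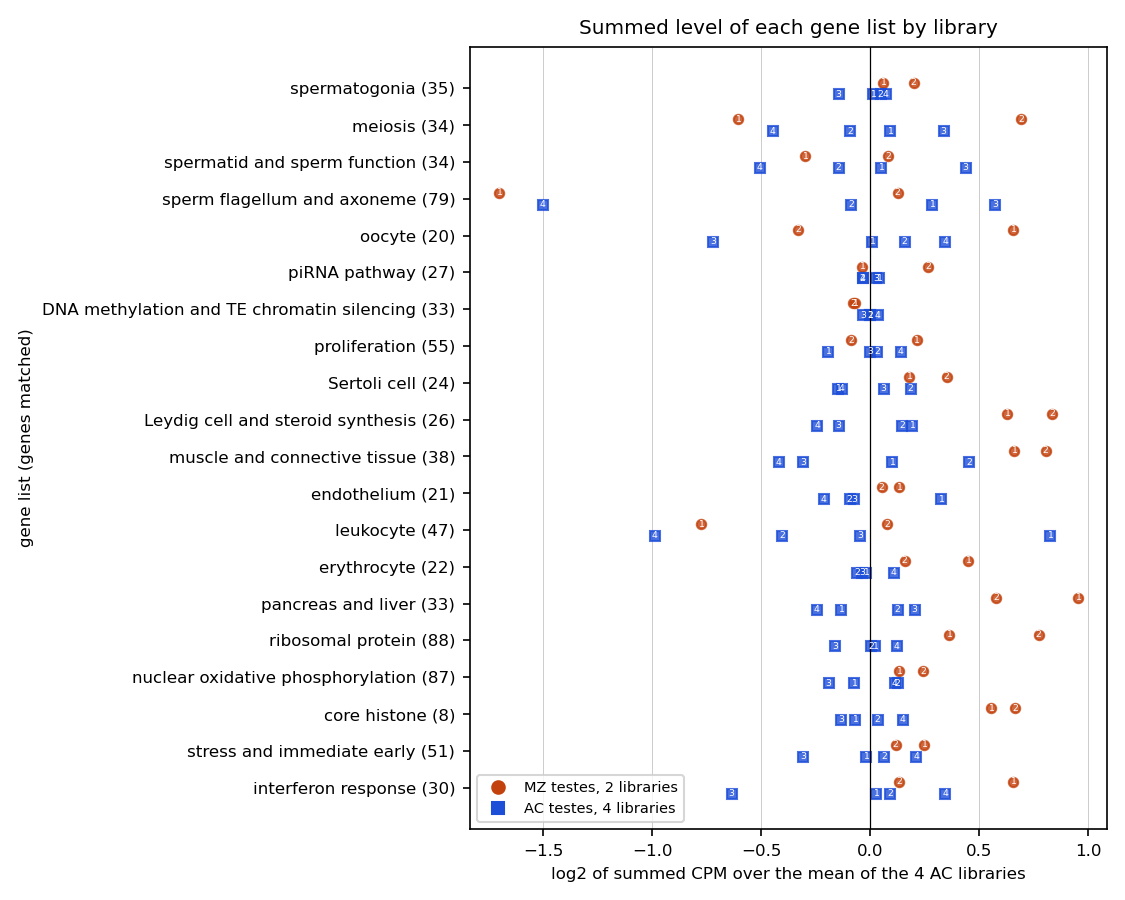
Summed CPM of each gene list in each library, divided by the mean of the 4 AC libraries and shown on a log2 axis; the number in each marker is the replicate, with MZ libraries as circles and AC libraries as squares. Flagellum and meiosis genes place MZ 1 and AC 4 low. Both MZ libraries exceed every AC library for ribosomal protein, oxidative phosphorylation, core histone, steroid synthesis, muscle, pancreas and liver, and erythrocyte genes.

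Among somatic lists, steroid synthesis genes held the largest share of calls. Of 25 Leydig and steroid-synthesis genes, 4 were higher (star, CYP19A1, cyp17a2, srd5a1), or 16.0% against 4.94% of all genes, and 2 lower (srd5a2a, porb), or 8.0% against 3.77%. The summed level was 2998 and 3458 CPM in MZ testes, against 2213, 2147, 1754 and 1639 CPM in AC testes. The steroid 5α-reductase gene srd5a1 (chromosome 22, 30506913 to 30528736) had 8.31 and 19.7 CPM in MZ testes, against 1.28, 1.24, 1.07 and 0.891 CPM in AC testes (log2 fold change 3.64 ± 0.36, adjusted p = 2.06e-04). Another 5α-reductase gene, srd5a2a, had 0.962 and 1.57 CPM in MZ testes, against 7.58, 7.21, 4.99 and 6.71 CPM in AC testes (log2 fold change -2.38 ± 0.29, adjusted p = 7.24e-04). In TM testes srd5a1 lay between 12 and 22.8 CPM and srd5a2a between 39.5 and 52.7 CPM. A further such gene, srd5a2b, had too few counts to be tested. The aromatase gene CYP19A1 (ENSACLG00000008094), which turns androgen into oestrogen, had 231 and 281 CPM in MZ testes, against 157, 88.3, 75.2 and 99.8 CPM in AC testes (log2 fold change 1.28 ± 0.32, adjusted p = 0.0316). Another CYP19A1 entry, ENSACLG00000010505, leaned the other way, with 124 and 169 CPM in MZ testes, against 250, 246, 220 and 154 CPM in AC testes (log2 fold change -0.57 ± 0.4, adjusted p = 0.41), not called. A further CYP19A1 entry, ENSACLG00000009748, had 1.27 and 1.65 CPM in MZ testes, against 0.688 to 3.53 CPM in AC testes (log2 fold change -0.16). The entry named cyp19a1a had 0.192 and 0.374 CPM in MZ testes, against 0.16 to 0.775 CPM in AC testes (log2 fold change -0.68). Neither was called. The split of reads between entries of 1 name is uncertain. cyp17a2, a steroid 17-hydroxylase, had 232 and 247 CPM in MZ testes, against 75.4, 35.2, 72.6 and 72.6 CPM in AC testes (log2 fold change 1.9 ± 0.41, adjusted p = 0.0175). porb, which passes electrons to microsomal P450 enzymes, had 57.5 and 42.9 CPM in MZ testes, against 269, 235, 156 and 135 CPM in AC testes (log2 fold change -1.99 ± 0.31, adjusted p = 0.00325). The list had calls in both directions, with the 5α-reductase genes srd5a1 and srd5a2a opposed. CYP19A1 lost its call without any library but AC library 1 (adjusted p = 0.0531 to 0.13), and cyp17a2 without MZ library 2 (0.0688).

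Of 22 Sertoli cell genes, 3 were higher (13.6%, against 4.94% of all genes) and none lower. Their median was 0.43, with fewer calls when either MZ library was left out. cyp26b1, which degrades retinoic acid, had 14.9 and 7.37 CPM in MZ testes, against 3.41, 1.2, 2.55 and 0.736 CPM in AC testes (log2 fold change 2.49 ± 0.53, adjusted p = 0.0151). inha, the inhibin α subunit, had 66.9 and 84.2 CPM in MZ testes, against 33.1, 49.1, 41.2 and 36.6 CPM in AC testes (log2 fold change 0.92 ± 0.2, adjusted p = 0.0178). Of 36 muscle and connective-tissue genes, 6 were higher (16.7%, against 4.94% of all genes) and none lower, with 29 above 0 and a median of 0.82. The contractile gene tpm2 had 22.4 and 43.8 CPM in MZ testes, against 11.4, 9.94, 14.4 and 5.81 CPM in AC testes (log2 fold change 1.67 ± 0.39, adjusted p = 0.0239). mylka, the kinase of myosin light chain, had 129 and 96.7 CPM in MZ testes, against 58.3, 53.9, 28.7 and 33.9 CPM in AC testes (log2 fold change 1.37 ± 0.3, adjusted p = 0.0172). sparc, a matrix glycoprotein, had 33.9 and 58.3 CPM in MZ testes, against 12.6, 22.6, 19 and 11.2 CPM in AC testes (log2 fold change 1.49 ± 0.35, adjusted p = 0.0223). The others were cnn1b, TPM1 and dcn. The muscle count was 3 without MZ library 2 or AC library 1, 4 without MZ library 1, AC library 3 or AC library 4, and 0 when the fit held AC and MZ libraries alone. Without MZ library 1, adjusted p was 0.0764 for cyp26b1 and 0.074 for mylka, and without MZ library 2 it was 0.0946 for inha, 0.163 for tpm2 and 0.145 for sparc. The calls of tpm2 and sparc were also lost without AC library 1 (0.0599 and 0.0611), and that of tpm2 without AC library 2 (0.0586). dcn lost its call without any 1 library other than AC library 2 (0.0570 to 0.112), and TPM1 without MZ library 2, AC library 3 or AC library 4 (0.0573 to 0.200).

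Genes of other organs and of blood were compared as a measure of other cell types. Of 18 pancreas and liver genes, 3 were higher (16.7%, against 4.94% of all genes) and none lower. These were the carboxypeptidase gene CPA1, with 144 and 204 CPM in MZ testes, against 70.26, 65.5, 84.5 and 47.5 CPM in AC testes (log2 fold change 1.38 ± 0.23, adjusted p = 0.00484), the lipase gene CEL, with 4.15 and 2.32 CPM in MZ testes, against 0.16, 0.12, 0.241 and 0.271 CPM in AC testes (log2 fold change 3.99 ± 0.44, adjusted p = 4.17e-04), and the glucagon gene gcga, with 4.5 and 3.48 CPM in MZ testes, against 0.962, 1.12, 0.585 and 1.43 CPM in AC testes (log2 fold change 1.96 ± 0.37, adjusted p = 0.00974). Another CPA1 entry, ENSACLG00000012457, had 33.7 and 56.6 CPM in MZ testes, against 28.1, 34.7, 37.2 and 45.8 CPM in AC testes (adjusted p = 0.566). Another CEL entry, ENSACLG00000027073, had 0.115 and 1.01 CPM in MZ testes, against 0.24, 0.0801, 0.688 and 0.116 CPM in AC testes (adjusted p = 0.544). Neither entry was called. The summed level of the 33 matched genes was 1746 and 1347 CPM in MZ testes and 761 to 1038 CPM in AC testes. Most of this sum was the transferrin gene tfa, with 1540 and 1047 CPM in MZ testes, against 701, 862, 895 and 639 CPM in AC testes (log2 fold change 0.74 ± 0.33, adjusted p = 0.193), not called. The matched genes include INSC, which is not an insulin gene and entered by its copy-letter match to ins. In the same list insb, ctrl and fabp10a were at or near 0 in all 6 libraries, and ins was at 1.42 and 0.299 CPM in MZ testes and 0.619 to 1.63 CPM in AC testes. The trypsin gene prss1 had 0.808 and 3.67 CPM in MZ testes, against 0.12, 0.761, 0.138 and 0.271 CPM in AC testes (log2 fold change 2.79 ± 0.79, adjusted p = 0.0511), not called. Of the 18 genes tested, 13 had a log2 fold change above 0. Of 21 endothelial genes, 1 was higher (4.76%, against 4.94% of all genes) and 1 lower (4.76%, against 3.77%). The vascular growth factor receptor kdr was higher, with 57.3 and 29.1 CPM in MZ testes, against 11.6, 12.8, 4.71 and 3.02 CPM in AC testes (log2 fold change 2.43 ± 0.49, adjusted p = 0.0135), and vwf lower, with 1 and 2.02 CPM in MZ testes, against 4.45, 4.17, 3.23 and 4.81 CPM in AC testes (log2 fold change -1.46 ± 0.39, adjusted p = 0.0388). No erythrocyte gene of 19 was called. Of 36 leukocyte genes, 1 copy of MPEG1 was higher (log2 fold change 4.24) and 1 of MFAP4 lower (-2.81), or 2.78% each, against 4.94% and 3.77% of all genes. Without MZ library 2 the log2 fold changes were 3.69 for MPEG1 and -2.11 for MFAP4, and neither call held. MFAP4 was also not called without AC library 1, 2 or 3 (adjusted p = 0.0609 to 0.0758). In the oocyte list, lhx8a alone of 18 was called, as higher (5.56%, against 4.94% of all genes), with 94.9 and 52.5 CPM in MZ testes, against 32.8, 36.9, 31.2 and 47.8 CPM in AC testes (log2 fold change 0.99 ± 0.24, adjusted p = 0.029). Without MZ library 1, adjusted p was 0.222 for lhx8a, 0.0721 for kdr and 0.131 for vwf. The lhx8a call was also lost without AC library 1, 2 or 3 (0.0642 to 0.0765), and that of vwf without AC library 1, 2 or 4 (0.0625 to 0.0738).

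Of 25 interferon-response genes tested, psmb9a, a subunit of the immunoproteasome, was the only one called, as higher (4.0%, against 4.94% of all genes). It had 7.88 and 0.935 CPM in MZ testes, against 0 reads in all 4 AC testes, at least 152-fold higher over a floor of 3 reads for the group (adjusted p = 0.00319). With MZ library 2 alone the bound was 32.7-fold (adjusted p = 0.00419), and in a fit of the AC and MZ libraries alone the gene was not called (0.0525). Of 46 stress and immediate-early genes, 5 were higher (10.9%, against 4.94% of all genes) and hspa5 alone lower (2.17%, against 3.77%). The immediate-early transcription factor gene egr1 had 3.27 and 4.19 CPM in MZ testes, against 0.721, 1.08, 1.41 and 1.47 CPM in AC testes (log2 fold change 1.66 ± 0.46, adjusted p = 0.0455). fosab, another such gene, had 6.69 and 10.6 CPM in MZ testes, against 0.601, 0.32, 1.82 and 1.98 CPM in AC testes (log2 fold change 2.86 ± 0.56, adjusted p = 0.0106). The other 3 were ier2b, hspb11 and the chaperone gene hsp90aa1.2. hspb11 lost its call without any 1 library other than AC library 3 (adjusted p = 0.0723 to 0.104), and ier2b without MZ library 2 (0.125) or AC library 1 (0.0574). Without MZ library 2 the list held hsp90aa1.2 as higher and EGR2, not hspa5, as lower, with adjusted p of 0.145 for egr1 and 0.0536 for fosab, and egr1 lost its call without any 1 of the 6 libraries (0.0514 to 0.145).

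Ribosomal protein genes held a larger share of higher calls than any other list. Of 88 tested, 28 were higher in MZ (31.8%, against 4.94% of all genes) and none lower, 86 were above 0, and 80 had both MZ libraries above all AC libraries. The median log2 fold change was 0.60, and the summed level was 32934 and 43754 CPM in MZ testes, against 25978, 25653, 22881 and 27834 CPM in AC testes. rps29 had 199 and 249.7 CPM in MZ testes, against 103, 112, 71.7 and 124 CPM in AC testes (log2 fold change 1.13 ± 0.22, adjusted p = 0.0107), and rpl38 had 232 and 348 CPM in MZ testes, against 143, 137, 117 and 145 CPM in AC testes (log2 fold change 1.1 ± 0.21, adjusted p = 0.00827). Both calls were lost without MZ library 2 (adjusted p = 0.0592 for rps29 and 0.0595 for rpl38). The count of calls was 59 without MZ library 1, 3 without MZ library 2, 10 without AC library 1, 7 without AC library 2, 8 without AC library 3 and 17 without AC library 4, whereas the median stayed between 0.35 and 0.79. It was 2 with AC and MZ libraries alone and 53 with DESeq2. Of 87 nuclear genes of oxidative phosphorylation, 6 were higher (6.90%, against 4.94% of all genes) and 1 lower (1.15%, against 3.77%), with a median of 0.30 and 74 above 0, and 13 were higher without MZ library 1, 3 without MZ library 2 and 2 without AC library 1. atp5mea, a subunit of ATP synthase, had 54.7 and 70.22 CPM in MZ testes, against 27.9, 33, 28.1 and 32.2 CPM in AC testes (log2 fold change 1.04 ± 0.19, adjusted p = 0.0065). cox4i2, a subunit of cytochrome c oxidase, was lower, with 153 and 91.2 CPM in MZ testes, against 250.3, 296, 198 and 373 CPM in AC testes (log2 fold change -1.2 ± 0.29, adjusted p = 0.0264), and lost its call without MZ library 2 (adjusted p = 0.131) or AC library 2 (0.0561).

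Transcript length moved with these lists. With genes sorted by length into 10 bins, the median log2 ratio was -0.35 in the bin of the longest transcripts and 0.12 in that of the shortest. In the longest bin 16 genes were called higher and 147 lower of 1597, and in the shortest 92 and 58 of 1598. MZ library 2 ran between 0.21 in the shortest and -0.55 in the longest bin and MZ library 1 was near 0 in the shortest and at -0.19 in the longest, whereas AC libraries against each other lay between -0.11 and 0.10. Of 85 ribosomal protein genes with a length, 64 were in the 3 shortest bins, as were 58 of 86 oxidative phosphorylation genes. The part of length in their counts was not tested.

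**Figure D3:**
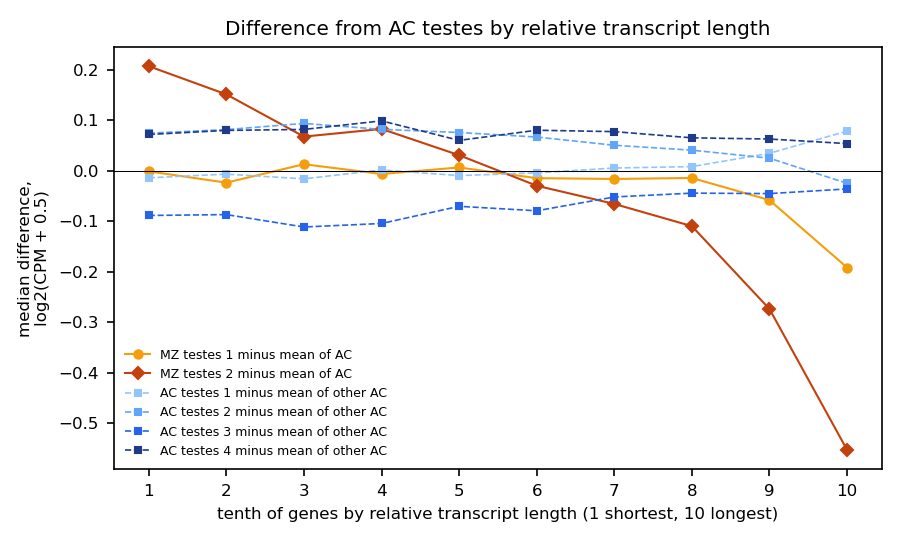
Median difference in log2(CPM + 0.5) from the mean of the AC libraries, in 10 bins of relative transcript length, shortest at the left; each line is a library, and each AC library is set against the other AC libraries. MZ library 2 falls to -0.55 in the longest bin, whereas the AC lines stay between -0.11 and 0.10.

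Of 56 detoxification genes, 6 were higher (10.7%, against 4.94% of all genes) and 3 lower (cbr1, porb and cyp1b1, 5.36% against 3.77%). cyp1b1 lost its call without MZ library 1 (adjusted p = 0.0741), MZ library 2 (0.159), AC library 1 (0.0510) or AC library 4 (0.0525). Those higher included gstt1a, a glutathione transferase, with 163 and 284 CPM in MZ testes, against 86.3, 122, 106 and 84.8 CPM in AC testes (log2 fold change 1.17 ± 0.23, adjusted p = 0.0118), and ALDH9A1, an aldehyde dehydrogenase, with 142 and 121 CPM in MZ testes, against 49.2, 59.25, 50.9 and 62.2 CPM in AC testes (log2 fold change 1.24 ± 0.16, adjusted p = 9.46e-04). Without MZ library 2, 2 were higher and adjusted p was 0.094 for gstt1a. Another ALDH9A1 entry, ENSACLG00000026902, had 96 and 76.2 CPM in MZ testes, against 83, 117, 76.2 and 118 CPM in AC testes (log2 fold change -0.19 ± 0.21, adjusted p = 0.623), not called. Of 373 solute carriers, 30 were higher (8.04%) and 20 lower (5.36%). slc1a3b, a glutamate transporter, was among those higher, with 7.81 and 14 CPM in MZ testes, against 0.0802, 0.401, 0.722 and 0.969 CPM in AC testes (log2 fold change 4.31 ± 0.63, adjusted p = 0.00226). Of 160 proteasome and ubiquitin genes, 4 were higher (2.5%) and 2 lower (1.25%), and of 162 zinc finger and NLR-family genes, 5 were higher (3.09%) and 4 lower (2.47%), all below the 4.94% and 3.77% of all genes. Among the zinc finger genes znf532 had 12.7 and 18.3 CPM in MZ testes, against 2.32, 3.49, 3.58 and 3.53 CPM in AC testes (log2 fold change 2.26 ± 0.3, adjusted p = 0.00138). Of 8 core histone genes, H2BK1 and H3C14 were higher (25.0%, against 4.94% of all genes). Both lost their calls without AC library 1, 2 or 3 (adjusted p = 0.0732 to 0.0995). H3C14 also lost its call without MZ library 1 (log2 fold change 1.57) or MZ library 2 (1.29). In the adipocyte list of 9, dgat2 alone was called, as lower (11.1%, against 3.77% of all genes).

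Of 26 genes of the piRNA pathway tested, 2 were higher (7.69%, against 4.94% of all genes) and 1 lower (3.85%, against 3.77%) in MZ. piwil1 (ENSACLG00000014540), the copy with by far the most counts of the 4 annotated, had 574 and 672 CPM in MZ testes, against 666, 618, 695 and 576 CPM in AC testes (log2 fold change -0.04 ± 0.18, adjusted p = 0.929), and piwil2 (chromosome 12, 3699497 to 3728617), the other Piwi protein, had 257 and 275 CPM in MZ testes, against 262, 272, 223 and 293 CPM in AC testes (log2 fold change 0.02 ± 0.17, adjusted p = 0.965). The groups overlapped for both. A further copy, ENSACLG00000005760, had 10.6 and 11.3 CPM in MZ testes, against 0.681, 1.2, 0.894 and 7.56 CPM in AC testes (log2 fold change 2.08 ± 0.75, adjusted p = 0.114), not called, with AC library 4 alone near the MZ level. ENSACLG00000005074 had 1.23 and 1.01 CPM in MZ testes, against 0.361, 0.24, 0.241 and 0.775 CPM in AC testes (log2 fold change 1.46 ± 0.46, adjusted p = 0.0735), and ENSACLG00000005069 had too few counts to be tested.

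The members called were hsp90aa1.2, gpat2 and parn. hsp90aa1.2 encodes an HSP90 chaperone, which in fly and mammals helps load Argonaute proteins, and had 540.3 and 582 CPM in MZ testes, against 266, 193, 262 and 234 CPM in AC testes (log2 fold change 1.23 ± 0.21, adjusted p = 0.00499). gpat2, needed for piRNA production in mouse, had 38 and 35.8 CPM in MZ testes, against 59.8, 57.1, 69.3 and 89 CPM in AC testes (log2 fold change -0.9 ± 0.21, adjusted p = 0.0233). parn, a poly(A) ribonuclease whose C. elegans relative trims piRNA ends, had 274 and 191 CPM in MZ testes, against 96.6, 111, 124 and 124 CPM in AC testes (log2 fold change 1.03 ± 0.18, adjusted p = 0.00572). Of 33 genes of DNA methylation and chromatin silencing, cbx5, a heterochromatin protein 1 gene, was the only one called, as higher (3.03%, against 4.94% of all genes), with 109 and 121 CPM in MZ testes, against 66.3, 69.9, 64.3 and 83.7 CPM in AC testes (log2 fold change 0.7 ± 0.16, adjusted p = 0.0191), and the list's median was -0.07. Without MZ library 2, adjusted p was 0.0889 for gpat2 and 0.0703 for cbx5, and cbx5 lost its call without AC library 1 as well (0.0537).

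TE families together took 1.17% and 1.96% of assigned counts in MZ testes, against 1.77%, 1.61%, 1.47% and 1.40% in AC testes. The means were 1.57% and 1.56%, and the exact two-sided permutation test gave p = 1, where 2 against 4 libraries allow no p below 0.133. The MZ libraries lay at both ends of the range, below and above all AC libraries. LTR elements took 0.552% and 0.782% in MZ testes, against 1.06%, 1.01%, 0.662% and 0.749% in AC testes (exact permutation p = 0.4). DNA transposons took 0.310% and 0.603%, against 0.293% to 0.389% in AC testes, and LINEs 0.284% and 0.525%, against 0.283% to 0.383%. SINEs were the class without overlap, at 0.0187% and 0.0249% in MZ testes, against 0.0133% to 0.0158% in AC testes (exact permutation p = 0.133, adjusted over 5 classes 0.667). Of the 557 families, 516 (92.6%) had more than 10 counts in at least 2 of the 6 libraries, and 456 in all of them.

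Most calls of single families were toward MZ in each class that held calls. Of 313 LTR families 49 were higher and 9 lower, of 132 DNA families 12 and 1, of 70 LINE families 10 and 0, of 3 SINE families 2 and 0, and the Helitron was not called. Class medians depended on which MZ library was used. For LTR families the median was 0.36 with both, 0.61 without MZ library 1 and -0.05 without MZ library 2, for DNA families 0.39, 0.74 and -0.07, and for LINE families 0.48, 0.76 and 0.06. With TE families scaled among themselves, which removes a common shift, the median of all families was -0.03 and 38 were higher and 41 lower. Counts of families without MZ library 1 were 128 higher and 9 lower, and without MZ library 2, 36 higher and 19 lower.

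**Figure D4:**
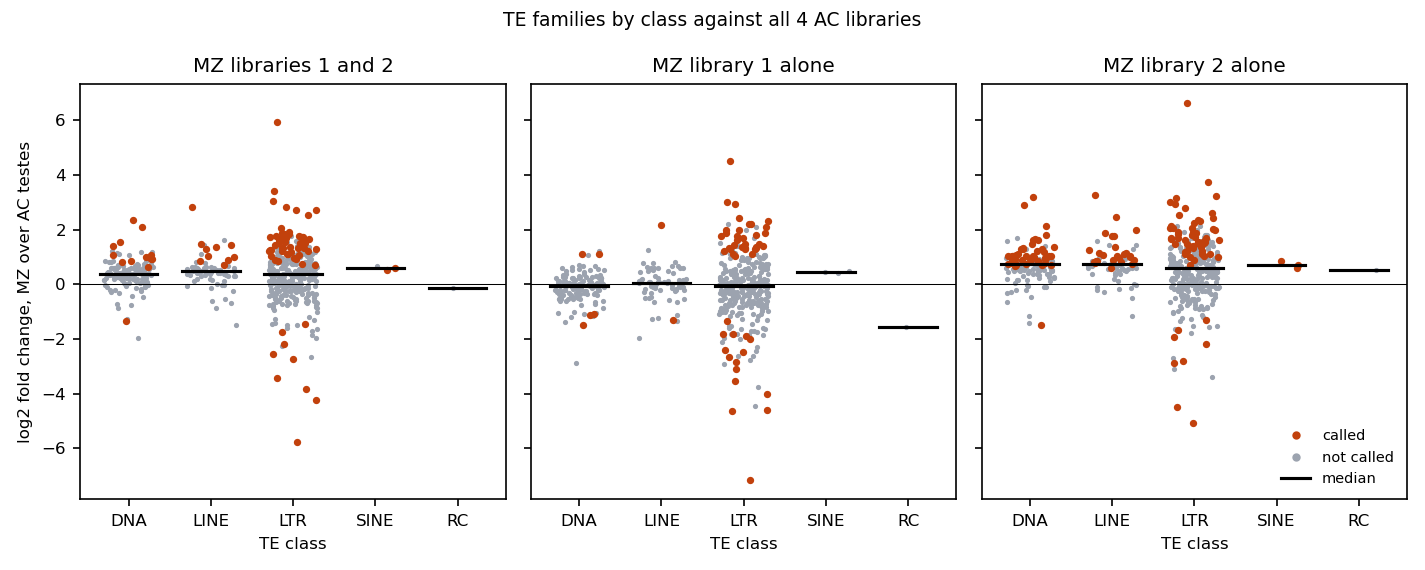
Log2 fold change, MZ over AC testes, of each TE family tested, by class, with both MZ libraries (left), MZ library 1 alone (middle) and MZ library 2 alone (right); families called are orange. The bulk of the DNA, LINE and LTR classes lies above 0 with MZ library 2 alone (median of all families 0.69). It lies near 0 with MZ library 1 alone (median of all families -0.03), where SINE families had a median of 0.43 and the Helitron was at -1.56.

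Within the LTR class, Gypsy held 30 families higher and 5 lower of 182, Pao 10 and 2 of 77, and ERV1 2 and 2 of 19. LTR elements are annotated as an internal part, which carries the coding genes, and the terminal repeats. Terminal repeats were called higher in 27 and lower in 3 of 122 cases (median 0.56), internal parts in 16 and 6 of 162 (median 0.12). Of 121 elements with both parts tested, 42 had a call in either part and 7 in both, always in the same direction. The call was in the terminal repeat alone for 23 and in the internal part alone for 12.

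Of the families named as higher, 4 kept their call in every alternative run. Pao-46_[LTR], the repeat of a Pao element, had 36 and 36.4 CPM in MZ testes, against 4.29, 3.89, 5.5 and 4.03 CPM in AC testes (log2 fold change 3.03 ± 0.22, adjusted p = 2.68e-05). Its internal part had 38.9 and 8.34 CPM in MZ testes, against 14.7, 14.5, 11 and 19.9 CPM in AC testes (log2 fold change 0.65 ± 0.47, adjusted p = 0.428), not called. L2-12, a LINE, had 93.2 and 202 CPM in MZ testes, against 21.8, 20.8, 21.3 and 19.8 CPM in AC testes (log2 fold change 2.82 ± 0.25, adjusted p = 8.68e-05). Gypsy-80_[INT] had 9.58 and 13.8 CPM in MZ testes, against 1.04, 1.96, 2.86 and 1.24 CPM in AC testes (log2 fold change 2.71 ± 0.39, adjusted p = 0.0022), and Pao-43_[LTR] had 138 and 204 CPM in MZ testes, against 34.5, 30.3, 23.1 and 30 CPM in AC testes (log2 fold change 2.54 ± 0.2, adjusted p = 4.03e-05). Each MZ library exceeded every AC library for these 4, as the choice of named families required. In TM testes L2-12 lay between 55.2 and 71.7 CPM, Gypsy-80_[INT] between 3.2 and 5.79 CPM and Pao-43_[LTR] between 24.3 and 29.4 CPM.

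The other 6 named as higher rested more on single fish. ERV1-6_[LTR] had 24.9 and 66.3 CPM in MZ testes, against 13, 12.2, 9.77 and 14.2 CPM in AC testes (log2 fold change 1.89 ± 0.37, adjusted p = 0.0105), Gypsy-24_[INT] had 6.54 and 15.3 CPM in MZ testes, against 3.17, 2.88, 3.3 and 3.6 CPM in AC testes (log2 fold change 1.75 ± 0.31, adjusted p = 0.00634), and Pao-44_[INT] had 8.54 and 26.4 CPM in MZ testes, against 5.21, 4.97, 5.3 and 5.43 CPM in AC testes (log2 fold change 1.74 ± 0.34, adjusted p = 0.0109). Without MZ library 2 their adjusted p values were 0.114, 0.0581 and 0.116. CMC-EnSpm-7, a DNA transposon, had 95.3 and 312 CPM in MZ testes, against 68.2, 74.3, 91.9 and 44.3 CPM in AC testes (log2 fold change 1.55 ± 0.38, adjusted p = 0.0297), and an adjusted p of 0.382 without MZ library 2, 0.0793 without AC library 1 and 0.06 without AC library 2. Gypsy-95_[LTR] had 16.1 and 7.44 CPM in MZ testes, against 2.4, 3.93, 2.65 and 4.07 CPM in AC testes (log2 fold change 1.85 ± 0.34, adjusted p = 0.00816) and Gypsy-84_[LTR] had 335 and 191 CPM in MZ testes, against 112, 134, 98 and 142 CPM in AC testes (log2 fold change 1.11 ± 0.23, adjusted p = 0.0137). Both were above all AC libraries, as the choice of named families required. Both lost their calls without MZ library 1, with log2 fold changes of 1.18 and 0.64.

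Among the named TE families the largest lower value was that of ERV1-3_[INT], the internal part of an endogenous retrovirus. It had 15.9 and 67.9 CPM in MZ testes, against 3469.9, 3057, 1248 and 1354 CPM in AC testes (log2 fold change -5.77 ± 0.88, adjusted p = 0.00347). As shares of all assigned counts these were 0.00155% and 0.00738% in MZ testes, against 0.366%, 0.304%, 0.142% and 0.139% in AC testes. In TM testes it lay between 335 and 1059 CPM. Its terminal repeat had 2.27 and 0.224 CPM in MZ testes, against 1.08, 4.57, 0.963 and 1.12 CPM in AC testes (log2 fold change -0.63 ± 0.88, adjusted p = 0.712) and was not called. Summed over ERV1 families, levels were 2409 and 3205 CPM in MZ testes, against 7369, 7830, 3084 and 4278 CPM in AC testes, which overlap. ERV1-8_[INT] was also lower, with 9.31 and 32.5 CPM in MZ testes, against 359, 259.5, 106 and 167 CPM in AC testes (log2 fold change -3.41 ± 0.63, adjusted p = 0.00879).

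Most other named families lower in MZ were of the Pao and Gypsy groups. Pao-37_[INT] had 3 and 4.49 CPM in MZ testes, against 13.5, 8.45, 19 and 26.2 CPM in AC testes (log2 fold change -2.17 ± 0.43, adjusted p = 0.0111) and Pao-33_[INT] had 4.96 and 5.87 CPM in MZ testes, against 15.1, 16.9, 21.2 and 20.2 CPM in AC testes (log2 fold change -1.76 ± 0.35, adjusted p = 0.011). Both parts of Gypsy-13 were called. Its internal part had 0.692 and 5.09 CPM in MZ testes, against 20.6, 12.9, 13.2 and 21.7 CPM in AC testes (log2 fold change -2.56 ± 0.7, adjusted p = 0.045), and its repeat had 0.308 and 0.224 CPM in MZ testes, against 6.49, 4.37, 4.61 and 4.73 CPM in AC testes (log2 fold change -4.22 ± 0.39, adjusted p = 1.35e-04). Gypsy-13_[INT] lost its call without MZ library 1 (adjusted p = 0.0755) or any 1 AC library (0.058 to 0.0846). Gypsy-10_[LTR] had 9 and 3.85 CPM in MZ testes, against 15.6, 23, 12.3 and 18.6 CPM in AC testes (log2 fold change -1.43 ± 0.4, adjusted p = 0.0453), and the DNA transposon DNA-1 had 12.8 and 10.7 CPM in MZ testes, against 22.4, 28.9, 26.2 and 40.8 CPM in AC testes (log2 fold change -1.34 ± 0.26, adjusted p = 0.01). Without MZ library 2 their adjusted p values were 0.180 and 0.0579, and Gypsy-10_[LTR] lost its call without AC library 1, 2 or 4 as well (0.0653 to 0.0969). No MZ library overlapped an AC library for any of these 6 families. The choice of named families required this of all but the Gypsy-13 repeat.

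**Figure D5:**
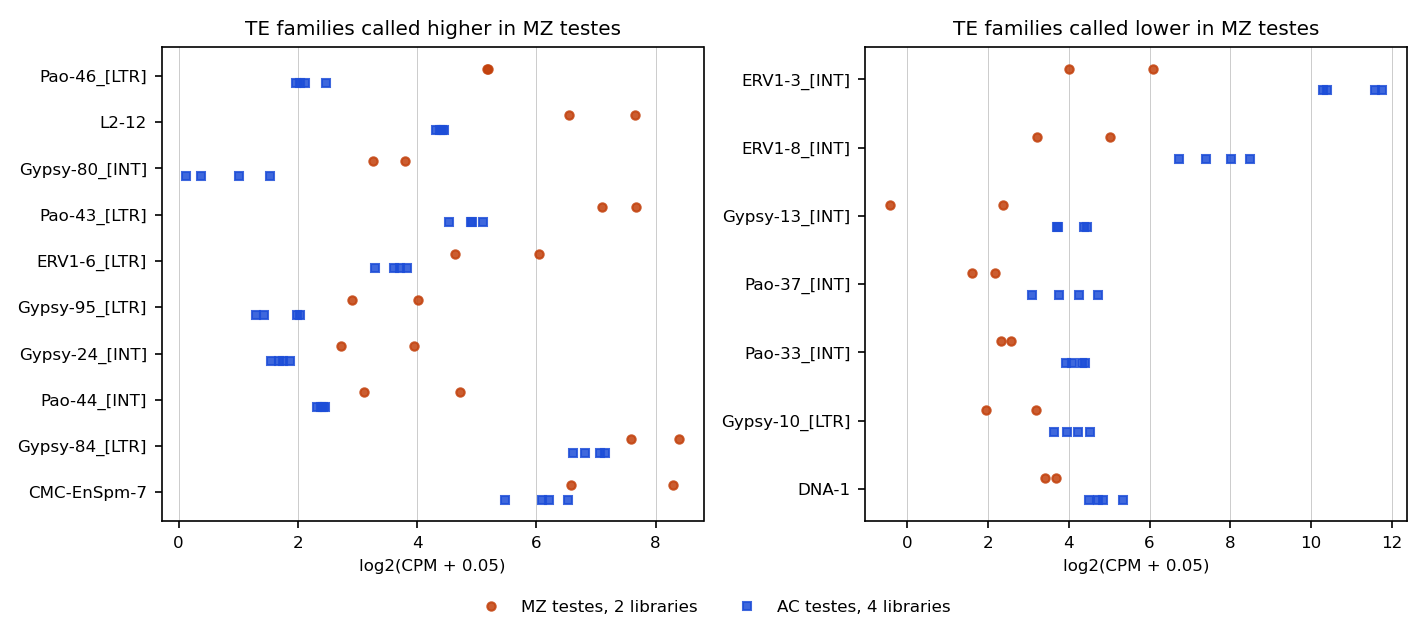
Level of each named TE family in each library, as log2(CPM + 0.05), for families higher in MZ testes (left panel) and lower (right panel); circles are the 2 MZ libraries, squares the 4 AC libraries. Families were drawn only where the circles lie beyond the squares. ERV1-3_[INT] shows the widest gap of the right panel.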

How the data were processed

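Testes RNA of 2 MZ, 4 AC and 4 TM fish was compared. The authors trimmed reads (Trimmomatic 0.39), aligned them to fAstCal1.2 with STAR 2.5.4b, allowing up to 150 alignments of a read, and counted genes and TE families with TEtranscripts. The deposited counts are unnormalised, 1 column a library, and reads matching several copies of a TE are shared within families. Deposited log2 values are the authors' rlog transform over all libraries, used here only to check the direction of TE families. Deposited TPM values from Salmon 1.5.1 were treated here as a score, not as plain TPM, and served no test.

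From the counts, genes and TE families with enough reads (filterByExpr) were fitted together over the 10 libraries with edgeR 4.0.16 in R 4.3.3 (TMM, robust quasi-likelihood, contrast MZ minus AC, Benjamini-Hochberg adjustment). This was checked on simulated data with known changes in MZ. The fit called 10 of 50 changes of 2-fold, 33 of 50 of 4-fold, 48 of 50 of 8-fold and 47 of 50 of 16-fold. It made 9 false calls among 20559 features. A gene or family without a call may therefore still differ by 2-fold or more. The simulated features varied independently, without shifts shared by many genes of a library, such as those of the flagellum genes here. Features given a change were drawn from those above a set mean level. The recovery and false-call counts therefore cannot be carried over to the real libraries. CPM are counts per 1000000 after TMM, and SE is the log2 fold change divided by the root of F. The design's smallest exact permutation p for shares is 0.133. Depth limits precision below a few reads, and intervals cover counting error only. Replicates are individual fish.

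Named genes are, among called genes without overlap and with a mean of at least 10 CPM in the higher species, the 10 largest and smallest fold changes with a name, 2 without, and the 4 with most counts in each direction. For TE families these numbers are 8 and 3. List members were also named. psmb9a and the floor genes at 1 CPM were chosen after their values were seen. The 26 lists matched gene names exactly, with an added copy letter or an added number after a point, or by a name pattern. Mitochondrially encoded genes matched none. S6 kinases were kept out of the ribosomal list after the tables were seen. The comparison, members and lists were chosen with earlier results of these data known. Alternatives were DESeq2 1.42.0, other scalings, no filter, a replicate block, a 2-fold test, AC and MZ libraries alone, and leaving out each library. Locations come from RefSeq genes of the same assembly, matched by symbol (10898 genes). Other tissues were not used here, beyond gene levels in AC ovaries.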

Additional observations from a re-analysis of the deposited data

Results flagged for a closer look

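Of 166 sets of 4 AC values tested, 10 had 1 library far from the other 3, where chance gives about 1 in 20. The piwil1 copy ENSACLG00000005760 was at 7.56 CPM in AC library 4, with the others at 0.681 to 1.2 CPM. cyp17a2 was at 35.2 CPM in AC library 2, with the others at 72.6 to 75.4 CPM. dcn was at 23.8 CPM in AC library 2, with the others at 6.16 to 8.94 CPM. The terminal repeat ERV1-3_[LTR] was at 4.57 CPM in AC library 2, with the others at 0.963 to 1.12 CPM. znf532 was at 2.32 CPM in AC library 1, with the others at 3.49 to 3.58 CPM, and Gypsy-13_[LTR] at 6.49 CPM there, with the others at 4.37 to 4.73 CPM. The ccl25b entry ENSACLG00000002656 was at 17.5 CPM in AC library 4, with the others at 24.4 to 24.6 CPM. In AC library 3, ENSACLG00000021412 and mc4r were at 0.0344 CPM, a single read, and hspb11 at 0.103 CPM, with the others at 0.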

How the results depend on the processing

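Of 98 genes and 21 TE families named and called, none changed direction in any alternative that gave a value. With DESeq2 98 and 21 kept their calls, with AC and MZ libraries alone 47 and 10, with a 2-fold test 41 and 7, and with 1 library left out 60 to 89 and 13 to 19. The number of called genes was 2902 with DESeq2 (48.6% of them higher), 600 with AC and MZ libraries alone, 426 with the 2-fold test, 1125 to 2575 with 1 library left out, and 2719 without both MZ library 1 and AC library 4, an alternative chosen after seeing the data. For TE families the counts were 20, 10, 41 to 137 and 147 in the settings after DESeq2. DESeq2 gave 119 (99 higher and 20 lower). For the 2 replicate numbers shared by the species, correlations of deviations were -0.085 and -0.061. Both rest on 1 difference, that between the MZ libraries, so they cannot decide whether these numbers pair the fish. With the replicate block, 607 genes and 18 TE families were called. At 1 CPM instead of 10, features near 0 numbered 14 in MZ and 19 in AC.

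The difference in TE share (0.00467 percentage points) was -0.0373 as a log2 ratio, and ran between -0.391 and 0.401 percentage points with 1 library left out. In the same way the difference ran between -0.0252 and 0.267 for DNA transposons, between -0.0365 and 0.204 for LINEs, and between -0.0129 and 0.00978 for Helitrons.

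Log2 fold changes of some uncalled members, not all of them near 0, turned sign. With 1 library, or both MZ library 1 and AC library 4, left out, piwil1 ENSACLG00000014540 ran between -0.15 and 0.060, piwil2 between -0.048 and 0.11, Pao-46_[INT] between -0.86 and 1.37, Gypsy-84_[INT] between -0.056 and 0.35, ERV1-3_[LTR] between -3.28 and 0.24, ERV1-8_[LTR] between -0.68 and 0.62, and Gypsy-10_[INT] between -0.90 and 0.57. With TE families scaled alone Gypsy-84_[INT] was -0.27, ERV1-8_[LTR] -0.39 and Gypsy-10_[INT] -0.19. With the replicate block ERV1-8_[LTR] was -0.16 and Gypsy-10_[INT] -0.10. With total counts piwil2 was -0.0061 and Gypsy-10_[INT] -0.012, and on rlog values Gypsy-10_[INT] was -0.033. The cause of these changes was not tested.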

Other observations

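Some TE families below 10 CPM had large differences, and are named after their values were seen. Gypsy-59_[LTR] had 3.35 and 14.6 CPM in MZ testes, against 0.12, 0.24, 0.206 and 0 CPM in AC testes (log2 fold change 5.93, adjusted p = 0.00694). Pao-10_[INT] had 6.12 and 10.8 CPM in MZ testes, against 0.882, 0.361, 0.482 and 1.43 CPM in AC testes (log2 fold change 3.41, adjusted p = 0.00444). Gypsy-32_[INT] had 0.192 and 0.412 CPM in MZ testes, against 1.2, 4.41, 7.22 and 4.57 CPM in AC testes (log2 fold change -3.83, adjusted p = 0.0158).

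Only the 10898 genes located by symbol could be set on a chromosome, and the called genes among them were spread over all chromosomes. Their share of located genes tested ran between 4.43% on chromosome 22 and 9.17% on chromosome 9. The 8.71% called of all genes tested includes genes not located. It is therefore not the share against which these chromosomes can be called high or low.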
